A study of Mus musculus with 19 samples.

Results

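Slc2a1, Gpt2, Adipor2, Atp10a, Xdh, P4ha1, Gjb6, Smim3 and Gm19439 are 9 of the 51789 genes counted in the dorsal hippocampus of male mice. They form a set because each was higher after an exposure called SOR than in the homecage, so their rise with SOR is what chose them. Values and calls of that comparison are given as a description and test nothing about these genes. Most act in metabolism or in transport across membranes, but the roles of Smim3 and Gm19439 are not established and the name metabolic does not cover them. What the choice does not fix is how abundant the genes are, whether they differed with a dominant-negative Nr4A transgene called DN, and whether they vary together between mice.

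Neurons and glia depend on glucose that crosses the blood vessel wall, and in the brain this step is carried by Slc2a1, the glucose transporter GLUT1 of capillary endothelium and astrocytes. Glucose carbon is passed on as lactate, alanine and glutamate, and astrocytes share small molecules through gap junctions, of which the connexin encoded by Gjb6 is a part. Among the other genes, Xdh and Atp10a are known from endothelium, while Gpt2, Adipor2 and P4ha1 are expressed in many cell types.

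All mice were C57BL/6J males aged 2 to 4 months, and each library was ribosomal-RNA-depleted total RNA of 1 sample of dorsal hippocampus. In experiment 1, all mice carried the transactivator tTA and all underwent SOR, which the labels name by its letters alone, and 5 DN mice (tTA+/DN+) were set against 6 control mice (tTA+/DN-). In experiment 2 no mouse carried DN, and 4 control mice exposed to SOR (3 tTA+, 1 tTA-) were set against 4 kept in the homecage (2 tTA+, 2 tTA-). The labels do not give the promoter that drives tTA or say whether animals were pooled, so p-values measure the spread between these samples. Experiment 1 has no homecage group, so a change in the response to SOR by DN cannot be read from it.

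Libraries held 22258159 to 66991576 counts. The smallest was SOR replicate 3 of experiment 2. The markers of dorsal hippocampus (10 genes, among them Prox1 and Wfs1) summed to at least 1065 CPM (counts scaled to the library total) in every library. The Nr4a genes did not separate DN from control mice: Nr4a1 ran from 28.4 to 39.2 CPM with DN and from 20.2 to 52.5 CPM without, and the table gives no value for the transgene itself. Summed choroid plexus markers ran from 20.1 to 4118 CPM and so differed widely between libraries.

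The transporters come first. Slc2a1 (ENSMUSG00000028645.11, protein-coding, 20 annotated exons) lies on the plus strand of chromosome 4 at 119108711 to 119137983 in GRCm38. Atp10a (ENSMUSG00000025324.8, 23 exons), a flippase that moves phospholipids between the leaflets of the plasma membrane, lies on the plus strand of chromosome 7 at 58656166 to 58829420. Gjb6 (ENSMUSG00000040055.8, 9 exons), a connexin of astrocytes, lies on the minus strand of chromosome 14 at 57123303 to 57133611. The antisense gene Gm12868 shares 105 exonic bases with Slc2a1, but it had at most 16 counts in any library, where Slc2a1 had at least 1358.

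The enzymes are Gpt2, Xdh and P4ha1. Gpt2 (ENSMUSG00000031700.11, chromosome 8, plus strand, 85492576 to 85527560, 20 exons) is the mitochondrial alanine aminotransferase, which interconverts pyruvate and alanine. Xdh (ENSMUSG00000024066.8, chromosome 17, minus strand, 73883895 to 73950196, 62 exons) is xanthine dehydrogenase, which makes uric acid in purine breakdown. P4ha1 (ENSMUSG00000019916.14, chromosome 10, plus strand, 59323296 to 59373304, 20 exons) is the catalytic subunit of the prolyl hydroxylase that modifies collagen in the endoplasmic reticulum (ER), and it is a known target of hypoxia-inducible factors. Adipor2 (ENSMUSG00000030168.13, chromosome 6, minus strand, 119353150 to 119417704, 19 exons) is a receptor for adiponectin, a hormone of fat tissue.

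RefSeq promoters were found for 6 of the 9 genes (Slc2a1, Adipor2, Atp10a, Gpt2, P4ha1 and Gjb6). In the 250 bases before each start, both strands were searched for the Nr4a monomer site AAAGGTCA, the palindromic glucocorticoid receptor site, the core of the hypoxia response element ACGTG, the CREB-binding core TGACG and the XBP1 site TGACGTGG. The last of these contains the cores ACGTG and TGACG. The promoters with a match are shown, with the match in capitals, and they include a pair of genes that varied together between mice (Slc2a1 and Adipor2).
Slc2a1, chr4:119108495-119108744, plus strand, RefSeq GRCm38.p6: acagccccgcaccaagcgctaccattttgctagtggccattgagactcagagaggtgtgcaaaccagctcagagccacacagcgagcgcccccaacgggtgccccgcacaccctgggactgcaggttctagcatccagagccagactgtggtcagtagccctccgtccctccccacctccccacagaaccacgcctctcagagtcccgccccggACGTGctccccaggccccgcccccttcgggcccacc
Adipor2, chr6:119388735-119388984, minus strand, RefSeq GRCm38.p6: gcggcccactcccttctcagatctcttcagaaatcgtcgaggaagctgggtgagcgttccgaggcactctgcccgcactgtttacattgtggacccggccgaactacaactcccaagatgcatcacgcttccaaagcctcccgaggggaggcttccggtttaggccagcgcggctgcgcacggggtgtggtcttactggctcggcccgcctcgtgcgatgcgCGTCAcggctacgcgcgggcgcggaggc
P4ha1, chr10:59323046-59323295, plus strand, RefSeq GRCm38.p6: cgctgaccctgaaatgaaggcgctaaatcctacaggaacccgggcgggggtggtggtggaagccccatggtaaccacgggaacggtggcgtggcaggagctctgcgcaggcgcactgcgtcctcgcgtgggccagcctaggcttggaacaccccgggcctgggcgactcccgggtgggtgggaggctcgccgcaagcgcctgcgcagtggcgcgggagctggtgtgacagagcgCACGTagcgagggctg

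The core ACGTG stood 36 bases before the RefSeq start of Slc2a1 and, on the opposite strand, 16 bases before that of P4ha1, and 16.57% of 32851 RefSeq promoters hold it in this window. A match describes the letters only. The core TGACG was found in Adipor2 alone, on the opposite strand, 28 bases before its RefSeq start, and in 17.77% of all promoters. The letters of the Nr4a, glucocorticoid receptor and XBP1 sites were in none of the 6 windows, and were in 1.34%, 0.39% and 0.56% of all promoters. The RefSeq starts of Slc2a1, Adipor2 and Atp10a lie within the longer GENCODE genes, so the match in Slc2a1 is at the GENCODE start and not upstream of it. G and C made up 64.8% to 69.6% of the 3 promoters with a match, 55.6% of that of Atp10a, 57.6% of that of Gpt2 and 56.8% of that of Gjb6, where the median promoter has 52.4%.

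Smim3 (ENSMUSG00000038059.6, chromosome 18, minus strand, 60474191 to 60501987, 3 exons) encodes a small membrane protein. Gm19439 (ENSMUSG00000105843.1, chromosome 3, plus strand, 88030878 to 88033150) is a single-exon transcript that GENCODE holds as awaiting experimental checks, with no known product. Its nearest protein-coding neighbours are Hapln2, 3.3 kb away on the other strand, and Gpatch4, 9.96 kb away on the same strand.

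In homecage mice the genes fell into 2 tiers of abundance when counts were taken per kilobase of exon. P4ha1 was the most abundant at 20.5 ± 1.18 CPM per kilobase (SD, n = 4), a level that 10.4% of tested genes exceeded. Gjb6 (15.5 ± 1.47) and Gpt2 (15.1 ± 0.695) overlapped each other, as did Slc2a1 (12.8 ± 0.433) and Adipor2 (11.8 ± 0.727), in CPM per kilobase. The lower tier was formed by Smim3 at 1.94 ± 0.411, Atp10a at 1.77 ± 0.0734 and Gm19439 at 1.67 ± 0.157 CPM per kilobase, each overlapping the next. Xdh was lowest, at 0.395 ± 0.0531 CPM per kilobase, and 82.8% of tested genes were more abundant. The exon length counts all annotated transcripts, so a gene that uses a short form is placed too low.

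After SOR the 9 genes stood 1.49-fold (Slc2a1) to 2.58-fold (Xdh) above the homecage level, and for each of them every SOR library exceeded every homecage library. Such a separation upward was seen in 3.06% of the 22305 genes tested. The calls that led to the choice, by edgeR's quasi-likelihood fit at an adjusted p under 0.05, held 8 of the 9 and 0.0897% of all genes. Nothing is read from either share, since this contrast chose the genes. Slc2a1 was just inside the threshold, with an edgeR adjusted p of 0.0432, and Smim3 just outside it at 0.0595. The 20 genes called in all became 1 to 50 with 1 library left out, and 0 in the tTA+ mice alone.

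In homecage replicates 1 to 4, Slc2a1 had 45.5, 42.6, 45.4 and 45.8 CPM, and SOR replicates 1 to 4 had 75.8, 64.5, 67.6 and 59.8 CPM. The homecage libraries were within a few CPM of each other, and the SOR libraries were both higher and more widely spread. In the homecage mice Atp10a had 9.35, 10.4, 9.87 and 9.91 CPM, while the SOR mice had 17.7, 18.6, 17.3 and 14.0 CPM. For Gjb6 the homecage mice had 39.3, 37.2, 44.7 and 45.001 CPM, while the SOR mice had 80.9, 61.4, 79.3 and 62.0 CPM. Replicates 1 and 3 were thus the high SOR libraries for this connexin, and replicate 4 was the low one for Slc2a1 and Atp10a.

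Among the enzymes, Xdh had the largest ratio and the fewest counts, 110 to 201 per homecage library. In the homecage mice Xdh had 3.69, 4.10, 2.94 and 3.75 CPM, while the SOR mice had 11.2, 8.82, 9.84 and 7.52 CPM. Gpt2 in the homecage mice was at 85.7, 88.5, 79.8 and 87.6 CPM, while the SOR mice had 145, 132, 137 and 113 CPM. Levels of P4ha1 in the homecage were 86.1, 76.9, 86.6 and 87.1 CPM, while the SOR mice had 141, 127, 135 and 123 CPM. SOR replicate 1, the tTA- mouse, was the highest and replicate 4 the lowest of the SOR libraries in all 3 enzymes.

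In the homecage mice Adipor2 had 65.3, 73.1, 68.3 and 74.7 CPM, while the SOR mice had 126, 118, 105 and 113 CPM. Its lowest SOR library was replicate 3, the shallow one. Homecage levels of Smim3 were 10.9, 10.7, 15.6 and 15.7 CPM, while the SOR mice had 22.4, 25.8, 24.6 and 23.5 CPM. The 2 tTA- mice (replicates 1 and 2) were the low ones in the homecage, as they were for Gjb6, Gm19439 and, by a small margin, P4ha1. The homecage values of Gm19439 were 3.59, 3.40, 4.07 and 4.13 CPM, while the SOR mice had 9.40, 7.91, 8.42 and 10.5 CPM. Its neighbours Hapln2 and Gpatch4 had log2 fold changes of 0.26 (SE 0.118) and 0.13 (SE 0.159) after SOR, with edgeR adjusted p of 0.656 and 0.802, against 1.25 (SE 0.139) for Gm19439.

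**Figure D1:**
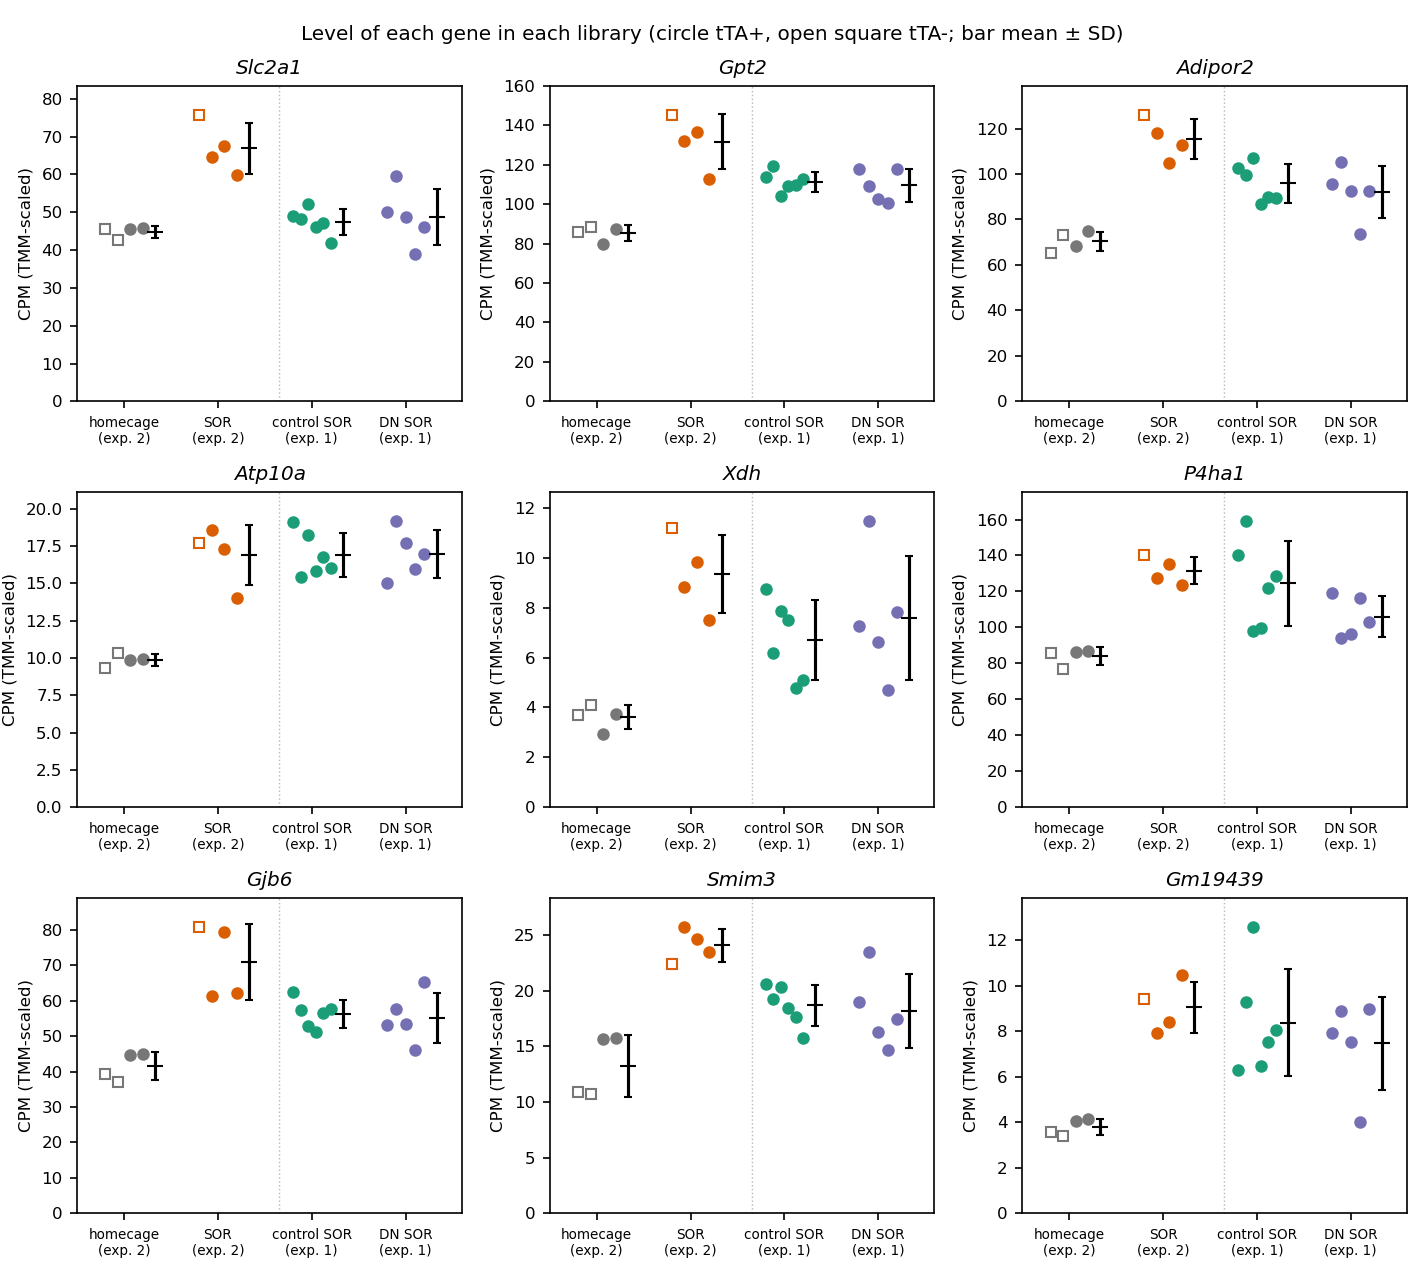
Level of each gene in CPM (TMM-scaled within each experiment, vertical axis from 0) in every library of the 4 groups (horizontal axis), with circles for tTA+ and open squares for tTA- mice, and bars for mean ± SD. The 4 SOR libraries of experiment 2 lie above the 4 homecage libraries in every panel, while the DN and control libraries of experiment 1 overlap in every panel.

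The levels by tTA genotype are a description, since the rule that chose the genes used these same libraries and the lack of overlap follows from it. In tTA+ mice (3 SOR, 2 homecage) the ratio of means ran from 1.402 for Slc2a1 to 2.61 for Xdh. In tTA- mice it ran from 1.67 for Gpt2 to 2.88 for Xdh, with 1 SOR library against 2. The difference between genotypes in the size of the rise was not tested.

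Markers of the cell types in which these genes are best known were not called with SOR. For reading the counts of lists below, 51.5% of all genes had a log2 fold change above 0, and 7.6% had an unadjusted p under 0.05 (3.67% higher and 3.93% lower). The 12 endothelial markers summed to 273 to 293 CPM in SOR mice and 291 to 310.0 CPM in homecage mice, and 4 of 12 had a log2 fold change above 0. The 10 astrocyte markers summed to 5164 to 6054 CPM in SOR mice and 5385 to 5876 CPM in homecage mice, with 5 of 10 above 0. Pericyte markers summed to 191 to 220.3 CPM and 209 to 220.2 CPM, and 3 of 7 were above 0. By edgeR 0 genes of these 3 lists were called, where 0.0897% of all genes were. At an unadjusted p under 0.05, endothelial markers had 1 higher and 3 lower, astrocyte markers 2 higher, and pericyte markers 1 lower. These included the endothelial receptor Kdr at -0.55 (SE 0.109) and the endothelial surface protein Ly6c1 at 0.56 (SE 0.156) on the log2 scale. The astrocyte genes were Aldh1l1 at 0.41 (SE 0.147) and Aldoc at 0.21 (SE 0.0837), and the pericyte gene was Pdgfrb at -0.37 (SE 0.129). In bulk tissue, more cells of a type and more RNA per cell cannot be told apart.

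Choroid plexus markers were higher in part of the SOR libraries. All 8 were above 0, the median being 2.16 on the log2 scale, and none was called by edgeR (5 had an unadjusted p under 0.05). Their sum was 993, 2185, 24.2 and 58.0 CPM in SOR replicates 1 to 4 and 68.0, 171, 74.3 and 45.5 CPM in the homecage. Oligodendrocyte markers had 7 of 8 above 0 (median 0.14) with 2 higher at an unadjusted p under 0.05, Mobp at 0.28 (SE 0.0824) and Cldn11 at 0.22 (SE 0.0893) on the log2 scale. Microglia markers had 4 of 8 above 0 (median 0.04) with 2 higher at that p, Tmem119 at 0.32 (SE 0.105) and C1qa at 0.35 (SE 0.134). Neuron markers had 4 of 10 above 0 (median -0.02) with 1 higher at that p, and blood markers 4 of 5 (median 0.12) with 1 higher. Meninges (6 of 7 above 0, median 0.04) and dorsal hippocampus markers (4 of 10, median -0.04) had 0 at that p. In these 6 lists 0 were called by edgeR, and the part of these and of the choroid plexus markers in the levels of the 9 genes was not tested.

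Genes of the same pathways were not called after SOR: 0 tested genes of 8 lists were called by edgeR. In the glucose uptake and lactate list 19 of 24 genes were above 0, the median being 0.17 on the log2 scale, where the median of all genes was 0.01. Of these 4 had an unadjusted p under 0.05, all higher. Pdk4, a kinase that holds back pyruvate oxidation, averaged 12.9 ± 2.08 CPM with SOR against 9.83 ± 0.430 CPM without it (mean ± SD over 4 mice each). Bsg, which carries lactate transporters to the membrane, was at 381 ± 26.8 and 323 ± 36.5 CPM. Their edgeR adjusted p values were 0.604 and 0.630.

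Among collagen-modifying enzymes P4ha2, which makes the alternative catalytic subunit to P4ha1, averaged 14.3 ± 2.70 CPM with SOR against 8.55 ± 0.588 CPM without it, or 0.73 (SE 0.137) on the log2 scale, and edgeR gave an adjusted p of 0.118. Serpinh1, the collagen chaperone of the ER, had a log2 fold change of 0.45 (SE 0.101, edgeR adjusted p 0.269). In this list 8 of 12 genes were above 0, 5 of them at an unadjusted p under 0.05. The hypoxia-inducible list had 15 of 18 above 0, a median of 0.10 and a lowest log2 fold change of -0.82. At an unadjusted p under 0.05 there were 5 higher and 0 lower, where 3.67% of all genes were higher. Pfkfb4, a regulator of glycolysis, was at 0.47 (SE 0.132) and Ddit4, an inhibitor of mTOR signalling, at 0.35 (SE 0.117) on the log2 scale. Their edgeR adjusted p values were 0.490 and 0.608.

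Among amino acid genes 13 of 17 were above 0 (median 0.11), with Glul, the glutamine synthetase of astrocytes, at 2014 ± 296 CPM with SOR against 1683 ± 85.6 CPM without it, and Slc7a11, the cystine and glutamate exchanger, lower at a log2 fold change of -0.33 (SE 0.129). The edgeR adjusted p was 0.624 and 0.621. Adiponectin signalling had 2 of 8 above 0 (median -0.13), and Adipor1, the sister receptor of Adipor2, averaged 96.9 ± 3.71 CPM with SOR against 87.0 ± 6.25 CPM without it, with an edgeR adjusted p of 0.662. Prkaa2, a catalytic subunit of AMP-activated kinase, was at -0.26 (SE 0.113) on the log2 scale, with an edgeR adjusted p of 0.649. Flippases had 5 of 12 above 0 (median -0.01), and Atp8b1 and Atp10b were at -0.54 (SE 0.159) and -0.49 (SE 0.192) on the log2 scale, with edgeR adjusted p of 0.541 and 0.621.

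Purine genes had 9 of 15 above 0 (median 0.04). Uox, which degrades the uric acid that Xdh makes, averaged 0.675 ± 0.0808 CPM with SOR against 0.990 ± 0.199 CPM without it, with an edgeR adjusted p of 0.637. Ampd3, an AMP deaminase, had a log2 fold change of -0.21 (SE 0.102, edgeR adjusted p 0.662). Connexins other than Gjb6 had 1 of 9 above 0 (median -0.06). That gene, Gjc1, was at 0.27 (SE 0.185) and Gjb1, a connexin of oligodendrocytes, at -0.17 (SE 0.120) on the log2 scale, with edgeR adjusted p of 0.695 and 0.698.

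**Figure D2:**
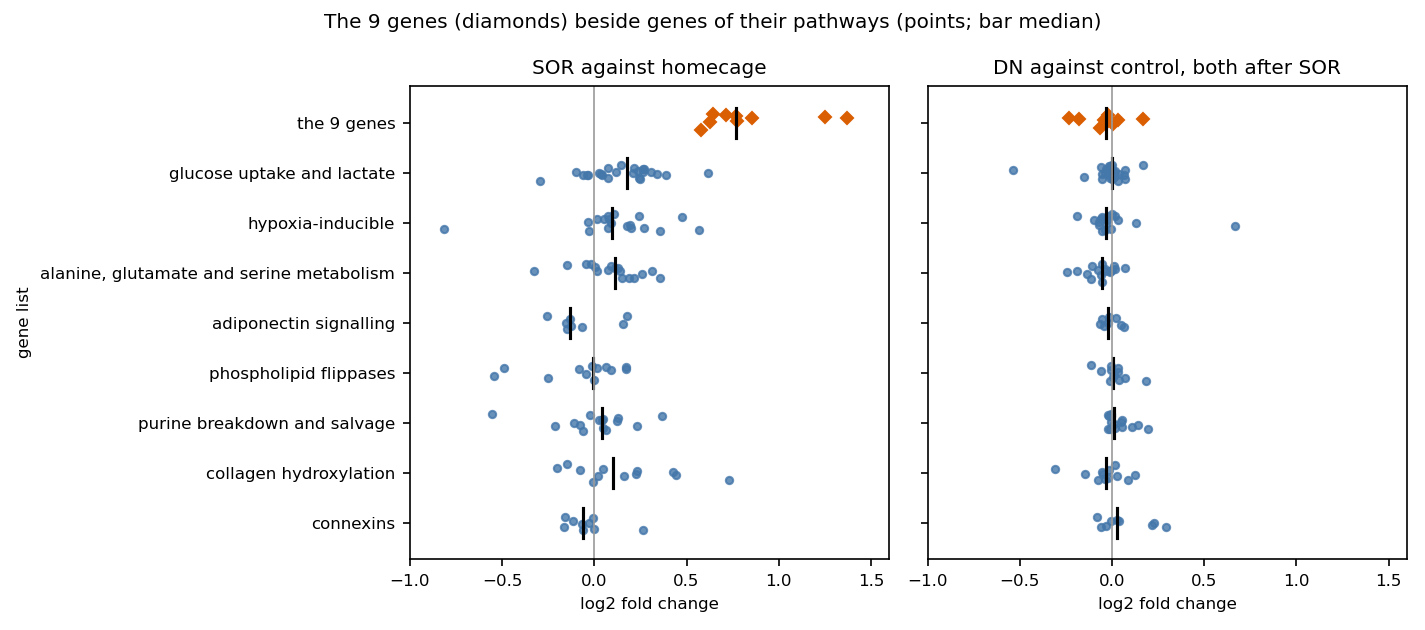
Log2 fold change (horizontal axis) of the 9 genes (diamonds) and of the other tested genes of 8 pathway lists (points, 1 row a list), after SOR against homecage on the left and with DN against control on the right, with a bar at each median. On the left the 9 genes, chosen from this contrast, lie between 0.58 and 1.37, and list medians lie between -0.13 and 0.17. On the right the 9 genes lie between -0.23 and 0.17.

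With DN none of the 9 genes passed the test. Of the 9, 0 were called by edgeR at an adjusted p under 0.05, where 0.00893% of 22391 genes were called, and 0 had an unadjusted p under 0.05, where 3.83% of genes did (2.02% higher and 1.81% lower). DESeq2 and limma-voom also called 0 of the 9. The edgeR adjusted p was 0.999 for each gene. In 6 of 9 genes the log2 fold change was below 0, against 50% of all genes, and the median was -0.03, against 0.00 for all genes. For each of the 9 the DN and control libraries overlapped, and 0.299% of all genes did not overlap.

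The precision differed between genes. For Gpt2 the log2 fold change was -0.02 with a 95% interval of -0.12 to 0.07, and for Atp10a it was 0.0049 with an interval of -0.14 to 0.15. The intervals were -0.16 to 0.23 for Slc2a1, -0.26 to 0.13 for Adipor2, -0.19 to 0.13 for Gjb6 and -0.27 to 0.18 for Smim3. Side by side, the differences with SOR in experiment 2 were 0.63 (SE 0.0910) for Gpt2, 0.78 (SE 0.110) for Atp10a, 0.58 (SE 0.0890) for Slc2a1, 0.71 (SE 0.0850) for Adipor2, 0.77 (SE 0.117) for Gjb6 and 0.86 (SE 0.141) for Smim3. The intervals were wider for the 3 remaining genes, at -0.34 to 0.68 for Xdh, -0.55 to 0.08 for P4ha1 and -0.72 to 0.36 for Gm19439.

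Slc2a1 was at 50.0, 59.6, 48.7, 39.0 and 46.1 CPM over DN replicates 1 to 5, and at 41.9 to 52.2 CPM in the controls with a median of 47.6. The highest and the lowest library of this gene were both DN mice, so the DN group enclosed the controls. Slc2a1 lies 817 kb from Ptprf and 974 kb from St3gal3, the 2 genes called with DN. Ptprf had a log2 fold change of 1.51 (SE 0.0541), against 0.03 (SE 0.0910) for Slc2a1.

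P4ha1 had the smallest unadjusted p of the 9 genes, 0.126. It was at 119, 94.2, 96.3, 116 and 103 CPM over DN replicates 1 to 5, and at 140.1, 159, 98.1, 99.5, 122 and 129 CPM in control replicates 1 to 6. Control replicates 3 and 4 fell among the DN libraries and the other 4 controls lay above them, and the log2 fold change was -0.23 (SE 0.138). It was -0.15 without control replicate 2 and -0.29 without control replicate 3, and with all 19 libraries in 1 edgeR fit its p was 0.0322 before and 0.99999 after adjustment. Xdh was at 7.28, 11.5, 6.61, 4.70 and 7.82 CPM with DN and at 4.77 to 8.75 CPM in the controls with a median of 6.86. Gm19439 was at 7.94, 8.89, 7.54, 4.01 and 8.97 CPM with DN and at 6.32 to 12.6 CPM in the controls with a median of 7.79, and its log2 fold change of -0.18 (SE 0.241) was -0.0154 without DN replicate 4 and -0.0215 without control replicate 3.

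The other genes were close between the groups. Gpt2 averaged 109.7 ± 8.30 CPM in the 5 DN mice and 111 ± 5.09 CPM in the 6 controls (mean ± SD). Adipor2 was at 91.9 ± 11.5 and 95.9 ± 8.44 CPM, and Gjb6 at 55.1 ± 7.01 and 56.4 ± 3.95 CPM. Atp10a was at 17.0 ± 1.61 and 16.9 ± 1.48 CPM, and Smim3 at 18.2 ± 3.35 and 18.7 ± 1.83 CPM. Each difference in means was smaller than the SD of either group.

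Genes of the pathways were not called with DN either. Of the entries tested in the 8 lists 0 were called by edgeR, where 0.00893% of all genes were. List medians ran from -0.05 to 0.03. At an unadjusted p under 0.05 were Bcat2 at -0.25 (SE 0.0862) and Psph at -0.12 (SE 0.0539), enzymes of branched-chain amino acid and serine metabolism, Gja1, the main astrocyte connexin, at -0.08 (SE 0.0394), and Car9, a carbonic anhydrase induced by hypoxia, at 0.67 (SE 0.292), all on the log2 scale with an edgeR adjusted p of 0.999. P4hb, the partner subunit of P4ha1, was at 135 ± 1.396 CPM with DN and 142 ± 7.98 CPM without. Endothelial markers summed to 288 to 312 CPM with DN and 270 to 306 CPM without, and astrocyte markers to 5742 to 6035 and 5704 to 6002 CPM. Among them Tie1 at 0.17 (SE 0.0729), Acsbg1 at 0.08 (SE 0.0369) and Aqp4 at -0.10 (SE 0.0403) had an unadjusted p under 0.05. Oligodendrocyte markers had 6 of 8 below 0, with Mbp at -0.11 (SE 0.0424) and Cldn11 at -0.11 (SE 0.0484) at that p. Dorsal hippocampus markers had 9 of 10 below 0 and blood markers 5 of 5 above 0, with 0 at that p. Pericyte, microglia, neuron and meninges markers had 0 at that p, and 0 were called in these lists. All 8 choroid plexus markers were below 0 with DN (median log2 fold change -0.95, 0 called and 0 at an unadjusted p under 0.05), with sums of 26.7 to 1647 CPM with DN and 20.1 to 4118 CPM without. The part of all these markers in the values of the 9 genes was not tested.

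**Figure D3:**
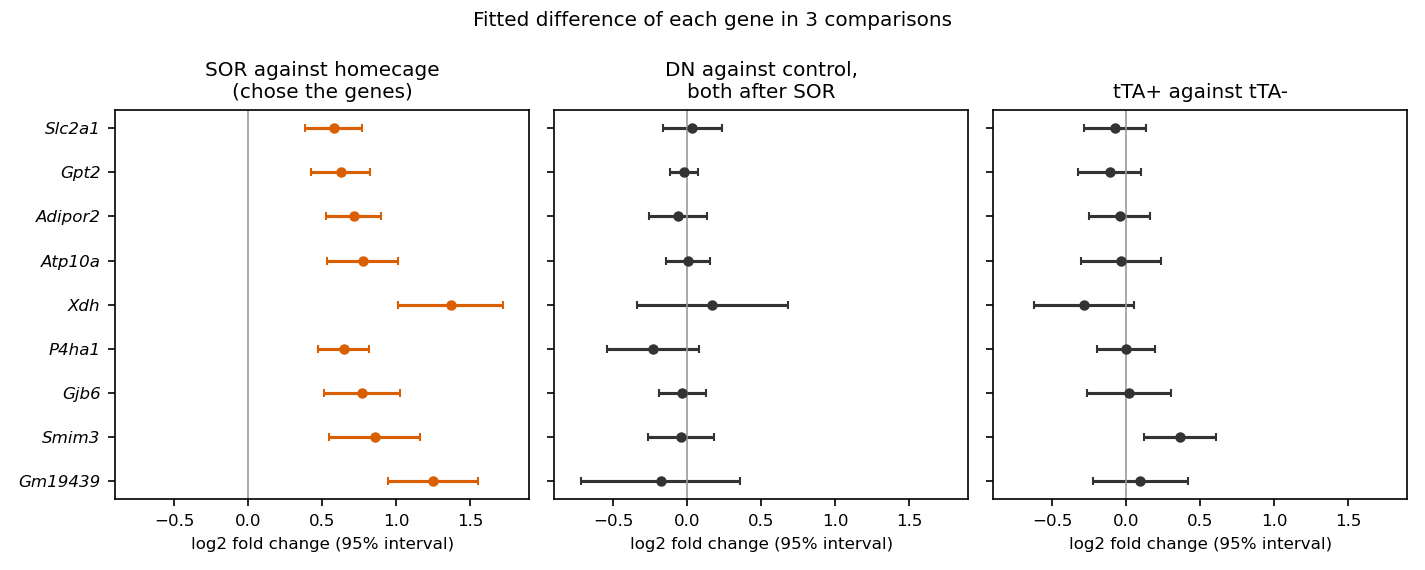
Log2 fold change with its 95% interval (horizontal axis) of each of the 9 genes (vertical axis) with SOR, with DN and with tTA. The values with SOR, which chose the genes, run from 0.58 to 1.37, and every interval with DN includes 0, while with tTA the interval of Smim3, 0.12 to 0.60, is the one that does not.

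The tTA genotype was compared within experiment 2, with exposure in the model. These are the 8 libraries used in choosing the genes, which favours a small spread within each exposure, so the values of the 9 genes are a description and not an independent test. By this fit 0 of the 9 genes were called by edgeR, where 0.358% of 22904 genes were. DESeq2 and limma-voom called 0 as well. At an unadjusted p under 0.05 there was 1 of 9, where 5.71% of genes were. That gene was Smim3, with a log2 fold change of 0.36 (SE 0.109) in tTA+ mice, and its edgeR adjusted p was 0.448. In the homecage the 2 tTA+ mice averaged 15.7 CPM and the 2 tTA- mice 10.8 CPM. After SOR the 3 tTA+ mice averaged 24.6 CPM and the 1 tTA- mouse was at 22.4 CPM, so the tTA- level after SOR has no replicate. Of the dorsal hippocampus markers C1ql2, a secreted protein of granule cells, was called lower in tTA+ mice (log2 fold change -2.19, SE 0.162), and 4 of 10 were lower at an unadjusted p under 0.05, Prox1 among them at -0.67 (SE 0.185). All 8 oligodendrocyte markers (median log2 fold change 0.20, 2 at an unadjusted p under 0.05) and all 8 microglia markers (median 0.12, 0 at that p) were above 0, with 0 called. Of the neuron markers 6 of 10 were above 0 (median 0.03) and 3 were higher at that p, Nefl at 0.20 (SE 0.0799) and Tubb3 at 0.25 (SE 0.104) among them, and of the meninges markers 1 of 7 was lower at that p, Islr at -0.50 (SE 0.132), with 0 called in either list. The part of these cell types in the Smim3 values was not tested. The other 8 members had log2 fold changes of -0.29 (Xdh, SE 0.152) to 0.10 (Gm19439, SE 0.146). In the pathway lists 0 genes were called with tTA, and 2 had an unadjusted p under 0.05, Pfkfb4 at 0.34 (SE 0.105) and Egln3, an oxygen-sensing hydroxylase, at 0.47 (SE 0.184) on the log2 scale.

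Although DN and control mice overlapped, the mice of experiment 1 differed among themselves, and 4 of the 36 pairs of genes varied together by the test. These 4 pairs have r above 0.85, as did 0.184% of all gene pairs. After the group means were taken away, log2 CPM of 29 of the 36 pairs had a Pearson r above 0 over the 11 libraries, with a median of 0.43, where 50% of all gene pairs were above 0. The median r over all pairs of 17091 genes was 0. These libraries were not used to choose the genes, but the points of a pair share the library and its scaling.

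Slc2a1, Smim3, Adipor2 and Xdh formed the tightest group. The r was 0.93 for Slc2a1 with Smim3 (rho 0.89), 0.90 for Slc2a1 with Adipor2 (rho 0.92), 0.90 for Xdh with Smim3 (rho 0.90) and 0.85 for Adipor2 with Smim3 (rho 0.89). By 100000 permutations of the libraries within the groups, the p of r was 7.4e-04, 9.4e-04, 0.00106 and 0.00516, and the p of rho 0.00157, 3.8e-04, 9.0e-04 and 0.00126. Adjusted over the 36 pairs, the permutation p of r was 0.0127, 0.0127, 0.0127 and 0.0464, and that of rho 0.0141, 0.0137, 0.0141 and 0.0141. No other pair passed both.

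The relations were weaker without the extreme mice. DN replicate 2 was the highest and DN replicate 4 the lowest library for Slc2a1 and Smim3, and for Xdh too. With these 2 libraries, the farthest from the median, left out, r was 0.83, 0.77, 0.78 and 0.76 in the same order. Within the 6 controls alone r was 0.92, 0.79, 0.83 and 0.79. Choroid plexus markers summed to over 1000 CPM in 3 libraries of experiment 1 (DN replicate 2 and control replicates 1 and 2), and without them, over 8 libraries, r was 0.89, 0.90, 0.83 and 0.80 in that order.

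P4ha1 and Gpt2 had low or negative r with this group. The r of P4ha1 was -0.33 with Slc2a1, -0.35 with Xdh, -0.12 with Adipor2 and -0.18 with Smim3. Outside the group it was -0.41 with Atp10a, 0.18 with Gjb6 and 0.53 with Gpt2. These negative r did not pass, with a permutation p of 0.259 (Slc2a1), 0.270 (Xdh), 0.701 (Adipor2), 0.555 (Smim3) and 0.228 (Atp10a). Within the 6 controls alone r of P4ha1 was 0.92 with Gpt2 and 0.80 with Gjb6, and -0.24 (Xdh) to 0.16 (Adipor2) with the group. Control replicate 2, with the highest P4ha1 level of experiment 1, was near its group's mean for Slc2a1. Gpt2 had r of 0.16 with Slc2a1, 0.34 with Adipor2, 0.23 with Xdh, 0.29 with Smim3 and -0.32 with Atp10a. Among the 9 genes it was closest to Gjb6, with an r of 0.67 (rho 0.71) and an adjusted permutation p of 0.222 for r.

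**Figure D4:**
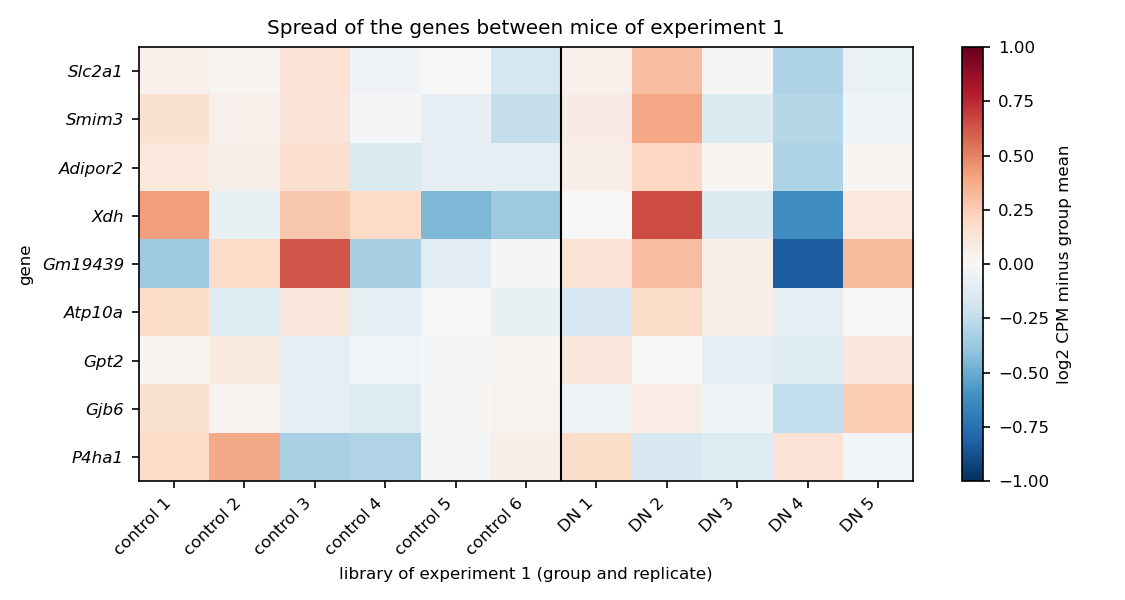
Log2 CPM minus the group mean (colour, from blue below to red above) of the 9 genes (rows) in the 11 libraries of experiment 1 (columns, controls left and DN right of the line). DN replicate 2 is above and DN replicate 4 below the group mean in Slc2a1, Smim3, Adipor2, Xdh, Gm19439, Atp10a and Gjb6, and P4ha1 shows the reverse in both.

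**Figure D5:**
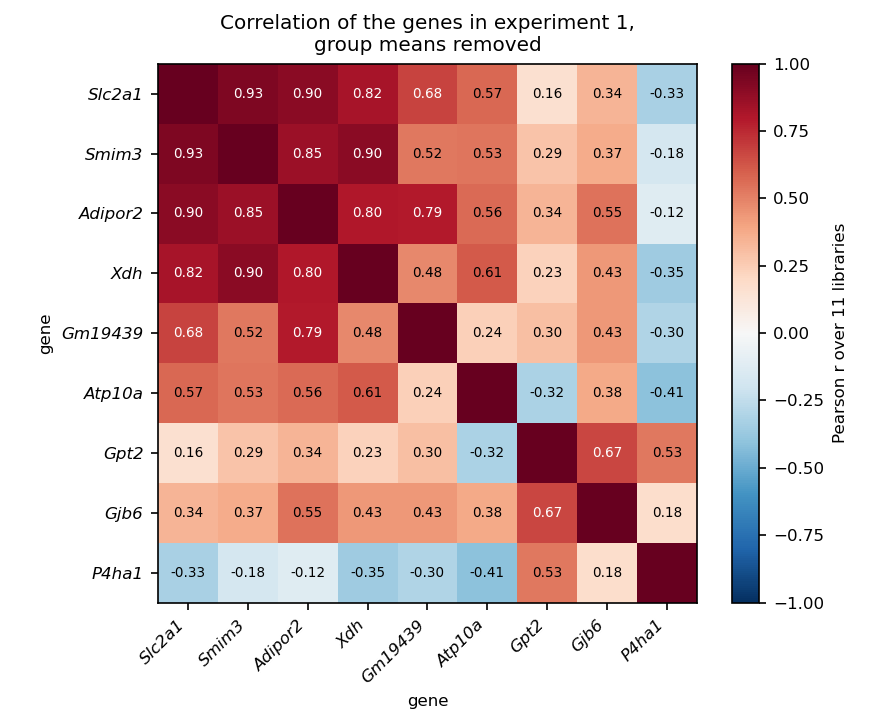
Pearson r over the 11 libraries of experiment 1, group means removed, for each of the 36 pairs of the 9 genes (rows and columns). Slc2a1, Smim3, Adipor2 and Xdh have r of 0.80 to 0.93 with each other, and P4ha1 has negative r with all genes but Gpt2 and Gjb6.

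The genes most like each member over the same 11 libraries were listed as a description, since each was picked as the highest of 17090 values of r. For Slc2a1 they were As3mt (r = 0.95), Anxa11 (0.94) and Dolk (0.93). Acaa1a was among the nearest 3 of Adipor2 (0.91), Xdh (0.93) and Smim3 (0.94). Adipor2 was also near Mat2a (0.96) and Zfp429 (0.92), Xdh near Srl (0.95) and Ino80c (0.94), and Smim3 near Nipsnap2 (0.95) and Prdm8 (0.94). The genes nearest to P4ha1 were Dnajb4 (0.99), Pdia4 (0.97) and Dusp5 (0.97), none of which was among the nearest 3 of another member. Gpt2 was nearest to Cdh9 (0.98), Gm45819 (0.96) and Lpar4 (0.94), Gjb6 to Commd3 (0.91), Npl (0.87) and Psma3 (0.87), Atp10a to Fam151b (0.94), 1700088E04Rik (0.90) and Ap3s1-ps1 (0.90), and Gm19439 to Pim3 (0.93), Tppp3 (0.92) and Rpl3-ps2 (0.91).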

How the data were processed

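The values are whole-number counts per gene in 19 libraries, deposited by the authors as 1 table without normalization. Per the submitters' processing notes, STAR, SAMtools 1.6, featureCounts 1.4.4 and the build mm10 were used. The annotation and the use of strand are not given in the sources used here. Symbols, coordinates and exon lengths came from GENCODE M21 on GRCm38, which held 51596 of 51789 identifiers (6 of the 9 members in the same version), and promoters from RefSeq on GRCm38.p6.

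Each experiment was fitted alone with edgeR 4.0.16 in R 4.3.3: filterByExpr, TMM scaling, robust quasi-likelihood F tests (two-sided), and Benjamini-Hochberg adjustment over all genes tested. The tTA fit had exposure as a covariate. Genes were called at an adjusted p under 0.05, and the method was tested on simulated data. Standard errors were derived from the fold change and the F statistic. CPM values were scaled by TMM within each experiment, and log2 CPM used a prior count of 2. The alternatives were other scalings and filters, DESeq2 1.42.0, limma-voom (limma 3.58.1), all libraries in 1 fit, tTA as a covariate, tTA+ mice alone, no exposure covariate, a replicate block and each library left out.

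Libraries within a group were more different than counting alone allows (chi-square per degree of freedom of 4.63 to 73.4), so none was counted as a repeat. The members, gene lists and tests were chosen with earlier results of these data known. Named beside the members were pathway or marker genes called in a comparison or, with none called, the 2 of a list with the smallest p, and for each member the 3 genes of highest r in experiment 1. The rule also named Ptprf and St3gal3, called with DN within 1 Mb of a member. Hapln2 and Gpatch4 (neighbours by position), Gm12868 (overlap), Wfs1 (as a listed marker) and Nr4a1 were added outside it. Genes outside the tests (Adipoq, Atp8b4, Tmem30b) had too few counts, and Pnp had no matching identifier.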

Additional observations from a re-analysis of the deposited data

Results flagged for a closer look

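Of 36 sets of values (9 genes in 4 groups), 3 held a library far from the others of its group, where chance flags about 1 in 20. Slc2a1 was at 42.6 CPM in homecage replicate 2 of experiment 2, with the other 3 homecage libraries at 45.4 to 45.8 CPM. P4ha1 was at 76.9 CPM in the same library, with the others at 86.1 to 87.1 CPM. Gm19439 was at 4.01 CPM in DN replicate 4 of experiment 1, with the other DN libraries at 7.54 to 8.97 CPM.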

How the results depend on the processing

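With DN, 2 genes were called under each of 19 alternatives, and none was a member. After SOR, the 20 calls (8 of them members) became 36 without a filter on low counts, 122 with DESeq2, 145 with all 19 libraries in 1 fit, 11 with tTA as a covariate (5 members) and 0 in tTA+ mice alone (374 genes at an unadjusted p under 0.05). With each library left out the number ran from 1 to 50: 1, 1, 1 and 7 without homecage replicates 1 to 4, and 2, 13, 50 and 24 without SOR replicates 1 to 4. The direction of the 9 members did not change: their 162 alternative log2 fold changes lay between 0.49 and 1.46. The refits used the libraries that chose the genes, so this is a description and not independent support. With tTA, the 82 calls became 265 without a filter, 253 with DESeq2 and 383 with all libraries, and ran from 10 (without SOR replicate 1) to 290 (without SOR replicate 3), with 24, 25, 24 and 22 without homecage replicates 1 to 4. The causes of these shifts were not tested.

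Whether the same replicate numbers pair the mice is not settled by these values. The correlation of same-numbered deviations ran from -0.05 to 0.19 in experiment 1 and 0.05 to 0.39 in experiment 2. In these experiments 2 of 10 and 3 of 8 libraries correlated best with their own number. With the replicate block, 2 genes were called with DN, 9 after SOR (2 members) and 0 with tTA.

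Member values that changed sign were all uncalled (41 values, lowest adjusted p 0.956). With DN these were Atp10a at -4.22e-04 by limma-voom, and Slc2a1 at -0.0069 and Atp10a at -0.0077 with the replicate block. With a library left out the range was -0.0483 to 0.11 for Slc2a1, -0.0430 to 0.0441 for Atp10a, -0.0265 to 0.31 for Xdh, -0.0535 to 0.0055 for Gpt2, -0.12 to 0.0074 for Adipor2, -0.0987 to 0.0258 for Gjb6 and -0.15 to 0.0245 for Smim3. P4ha1 (-0.293 to -0.150) and Gm19439 (-0.253 to -0.0154) kept their sign. With tTA, P4ha1 was at 5.80e-04 with DESeq2-type size factors and 3.02e-04 with DESeq2, and Gjb6 at -0.0135 with upper quartile scaling. With the replicate block Slc2a1 was at 0.0355, Atp10a at 0.10, P4ha1 at 0.11, Gjb6 at -0.0504 and Gm19439 at -0.0428. Without exposure in the model Slc2a1 was at 0.0523, Gpt2 at 0.0452, Adipor2 at 0.12, Atp10a at 0.15, Xdh at 0.0316 and P4ha1 at 0.15. With a library left out the range was -0.125 to 0.0539 for Slc2a1, -0.10 to 0.0495 for Adipor2, -0.0763 to 0.0107 for Atp10a, -0.0569 to 0.0944 for P4ha1 and -0.0517 to 0.23 for Gjb6. The least abundant genes, Xdh and Gm19439, had at least 110 and 107 counts per library.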

Other observations

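The controls of experiment 1 and the SOR mice of experiment 2 had the same exposure by name but belong to separate experiments, so a difference in their levels cannot be told apart from a difference between experiments. The homecage and SOR levels of experiment 2 also chose the 9 genes, so the levels are given side by side and nothing is read from their order. With all 19 libraries scaled together, Slc2a1 was at 41.2 to 51.2 CPM in the controls of experiment 1, 61.3 to 77.7 CPM in the SOR mice of experiment 2 and 43.6 to 46.9 CPM in the homecage mice. In the same order and on that scale, Gpt2 was at 102 to 117, 116 to 149 and 81.4 to 90.5 CPM. Adipor2 was at 84.8 to 105, 111 to 129 and 66.997 to 76.5 CPM. Atp10a was at 15.2 to 18.7, 14.4 to 18.8 and 9.60 to 10.6 CPM. Xdh was at 4.68 to 8.55, 7.70 to 11.5 and 3.01 to 4.198 CPM. P4ha1 was at 96.1 to 157, 126 to 144 and 78.7 to 89.1 CPM. Gjb6 was at 50.3 to 61.0, 62.1 to 83.8 and 38.0 to 46.1 CPM. Smim3 was at 15.5 to 20.2, 22.9 to 26.1 and 10.97 to 16.1 CPM. Gm19439 was at 6.18 to 12.3, 8.01 to 10.7 and 3.48 to 4.23 CPM.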
